A study of Homo sapiens with 8 samples.

Results

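The genes described here act where uracil or a lost base stands in DNA: the uracil glycosylases UNG, SMUG1 and TDG, the abasic site endonucleases APEX1 and APEX2, the translesion polymerases POLH and REV1, and NUGGC, a nuclear GTPase of germinal centre B cells. The 8 genes were chosen by gene symbol among the 63967 labels of an FPKM table (reads per kilobase of gene length, scaled to the counted reads of the library), with a rule that gives the distance between each label and its values. That rule was learned on levels summed over all 8 libraries and on no difference between groups, and it placed 18143 labels. Their levels are therefore a description, and the members were selected with earlier results of these libraries known.

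Libraries came from Raji, a Burkitt lymphoma line that is sensitive to the CD20 antibody rituximab, and from Raji-4RH, a line derived from it by repeated exposure to rituximab and resistant to that antibody. Each line was kept for 2-3 passages and then given DMSO, the solvent, or 3 µM chidamide, an inhibitor of histone deacetylases, for 24 h, after which cells were flow sorted and RNA was sequenced. Each of the 4 groups (Raji DMSO, Raji chidamide, Raji-4RH DMSO, Raji-4RH chidamide) held 2 libraries, each group is 1 cell line under 1 condition, and nothing states that the 2 libraries came from separate cultures, so the tests measure the spread between these libraries, which may be technical. The comparisons ask how chidamide changes each line, whether the 2 lines respond unequally, and how the lines differ under each condition. They share libraries, so a deviating library touches several of them.

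Uracil enters DNA when dUTP is built in during replication and when cytosine is deaminated, which germinal centre B cells do on purpose in their immunoglobulin genes. A glycosylase cuts the base out, an endonuclease opens the strand at the abasic site, and a polymerase and a ligase close the gap. UNG, the main uracil glycosylase of dividing cells, is known to be made chiefly around S phase, and an abasic site that is not repaired before replication is copied by translesion polymerases, one source of somatic hypermutation.

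In GENCODE 29 on GRCh38, 3 of the 8 genes lie on chromosome 12: UNG (ENSG00000076248) at chr12:109097574-109110992 on the plus strand, SMUG1 (ENSG00000123415) at chr12:54121277-54189008 on the minus strand and TDG (ENSG00000139372) at chr12:103965804-103988874 on the plus strand. APEX1 (ENSG00000100823) lies at chr14:20455191-20457772 and APEX2 (ENSG00000169188) at chrX:55000357-55009057, both on the plus strand. NUGGC (ENSG00000189233) lies at chr8:28021964-28083871 on the minus strand, POLH (ENSG00000170734) at chr6:43576150-43615660 on the plus strand and REV1 (ENSG00000135945) at chr2:99400475-99490035 on the minus strand. All 8 are protein-coding, and the values count reads over the exons of each gene.

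Libraries held 13991697 to 21193441 counted reads, of which 90.75 to 93.22% belonged to placed labels. The 8 B cell markers looked at (CD74, CD79A, CD79B and others) each had a mean of at least 1 FPKM over the 8 libraries. They summed to 1328 to 2298 FPKM per library, with CD74 the highest of them at a mean of 842 FPKM. Over the 200 labels around each member (130 for POLH), levels expected from the labels were correlated with summed levels read at distances from 0 to 20. The rule's distance gave the highest correlation, 0.453 to 0.596, against at most 0.185 at any other distance. The rule was itself learned on such summed levels, so this is not an independent check of it. One library stood apart: Raji-4RH chidamide replicate 1 was the shallowest, correlated with its replicate at 0.992 where the other 3 pairs reached 0.998 or more, and held 12.9 FPKM of the haemoglobin gene HBA2 against 0.44 or less in every other library. Markers of other cell types were low. Myeloid, T cell and epithelial or stromal genes summed to more under chidamide in both lines, erythroid genes only in Raji-4RH. Erythroid genes summed to at most 0.059 FPKM under DMSO and 0.010 under chidamide in Raji. In Raji-4RH they summed to 0.06 to 0.12 FPKM under DMSO and 0.44 to 12.9 under chidamide, the latter values being those of HBA2. Myeloid genes summed to 1.03 to 1.04 FPKM under DMSO and 9.71 to 9.73 under chidamide in Raji, and to 0.92 to 0.99 and 10.3 to 10.7 in Raji-4RH. T cell genes summed to 0.07 to 0.08 FPKM under DMSO and 0.82 to 1.05 under chidamide in Raji, and to 0.72 to 0.94 and 3.98 to 4.95 in Raji-4RH, with CD2 and CD8A under 0.1 in every group. Epithelial or stromal genes summed to 0.33 to 0.38 FPKM under DMSO and 2.13 to 2.35 under chidamide in Raji, and to 0.07 to 0.09 and 0.62 to 0.66 in Raji-4RH. Whether these markers play a part in the results was not tested.

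RefSeq promoters (GRCh38.p14) are described for 6 of the genes (UNG, TDG, APEX1, APEX2, POLH and REV1), with 2 for UNG. SMUG1 and NUGGC are not covered here. The 2 of UNG are shown because UNG gave the largest change of the 8 and because they differ in what they hold. Each window ran from 250 bases before to 50 bases after a start site, and the 250 bases upstream are printed 5′ to 3′ on the plus strand, with a match to the E2F letters in capitals.
UNG upstream start, chr12:109097347-109097596: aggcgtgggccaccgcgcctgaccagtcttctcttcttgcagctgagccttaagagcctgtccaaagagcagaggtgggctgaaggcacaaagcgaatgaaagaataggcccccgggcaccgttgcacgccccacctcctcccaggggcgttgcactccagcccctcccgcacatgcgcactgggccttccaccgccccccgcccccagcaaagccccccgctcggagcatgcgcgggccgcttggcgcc
UNG downstream start, chr12:109097922-109098171: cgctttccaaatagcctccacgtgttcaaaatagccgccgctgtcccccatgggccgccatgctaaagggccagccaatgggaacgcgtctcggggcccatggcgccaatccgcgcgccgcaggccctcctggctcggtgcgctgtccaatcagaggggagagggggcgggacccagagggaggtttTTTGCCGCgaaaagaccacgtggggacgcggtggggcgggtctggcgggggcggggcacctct
The E2F letters searched were TTTCCCGC, TTTCGCGC, TTTGCCGC and TTTGGCGC on both strands, and 3.315% of 35116 promoters held one. Only the downstream UNG promoter did so among the windows of the 6 genes, with TTTGCCGC beginning 63 bases before the start site. That window also held the CCAAT box (letters CCAAT, in 34.614% of promoters), the GC box (GGGCGG, 44.954%) and the CHR element (TTTGAA or TTCGAA, 16.352%). The upstream UNG window held the CCAAT box and the GC box. Such matches are descriptions of letters and not of bound sites. The deposited values are per gene, so transcripts from the 2 UNG starts cannot be told apart.

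Among the 8 genes, APEX1 stood highest in every group, between 156 ± 23.2 FPKM in Raji-4RH chidamide and 258 ± 2.37 FPKM in Raji DMSO (SD, n = 2 here and throughout). UNG was second in both DMSO groups, at 37.4 ± 1.16 FPKM in Raji and 45.5 ± 0.222 FPKM in Raji-4RH. Under chidamide it held rank 5 in Raji, at 10.5 ± 0.0135 FPKM, and rank 7 in Raji-4RH, at 6.21 ± 0.281 FPKM. SMUG1 was the lowest of the 8 in 3 groups, and in Raji chidamide its libraries overlapped those of NUGGC, which was lowest by mean. In each group all other neighbours in the order had libraries that did not overlap. All 8 genes passed the filter of at least 1 FPKM in at least 2 libraries without depending on a group where they were high, since the lowest value of any of them in any library was 2.61 FPKM. Between 230 and 9859 reads stood behind each value.

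**Figure D1:**
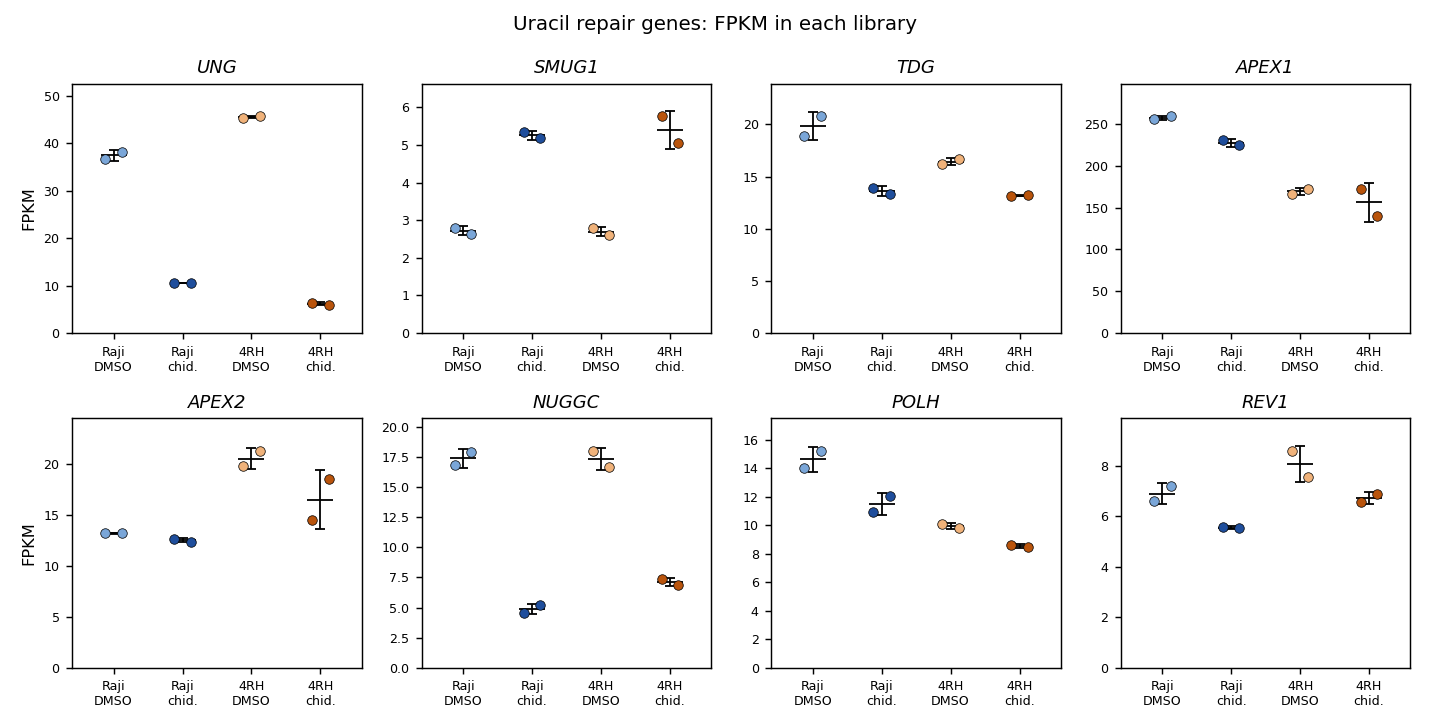
FPKM (linear axis from 0) of the 8 genes in each library, as points, with the group mean (line) and SD (bars), n = 2 per group. UNG and NUGGC lie far lower in all 4 chidamide libraries than in the 4 DMSO libraries, SMUG1 lies higher, and the 2 Raji-4RH chidamide libraries of APEX1 and APEX2 lie far apart.

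Chidamide left most of the 8 genes lower. In Raji-4RH, 7 of the 8 passed the test (limma across all genes, adjusted p under 0.05), against 74.9% of the 10710 genes tested. SMUG1 was the only one of the 8 to rise, where 43.3% of all genes rose, and 6 fell, where 31.6% of all genes fell. Under quantile normalization the whole-table split turned, from 4642 higher and 3380 lower to 3718 higher and 4057 lower, with the median of all genes moved by -0.11 on the log2 scale. In Raji, 6 of the 8 passed, against 60.0% of all genes. SMUG1 again rose, where 31.5% of all genes rose, and 5 fell, where 28.5% of all genes fell. Here too the whole-table split turned, from 3370 higher and 3051 lower to 2643 and 3432 under quantile normalization and to 3036 and 3421 with median-centred libraries. The median log2 fold change of the 8 was -0.26 in Raji-4RH and -0.30 in Raji, beside 0.09 and 0.02 over all genes tested. With so many genes past the threshold, these counts describe the 8 less than the sizes of their changes do. The comparisons of Raji-4RH rest on 4 libraries of which one stood apart. Results of the 8 genes that change without it are named below. The lists of other genes given further on were not fitted again without it. An exact permutation test on 2 against 2 libraries cannot go below p = 0.333, so tests of single genes rest on the fit across all genes.

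**Figure D2:**
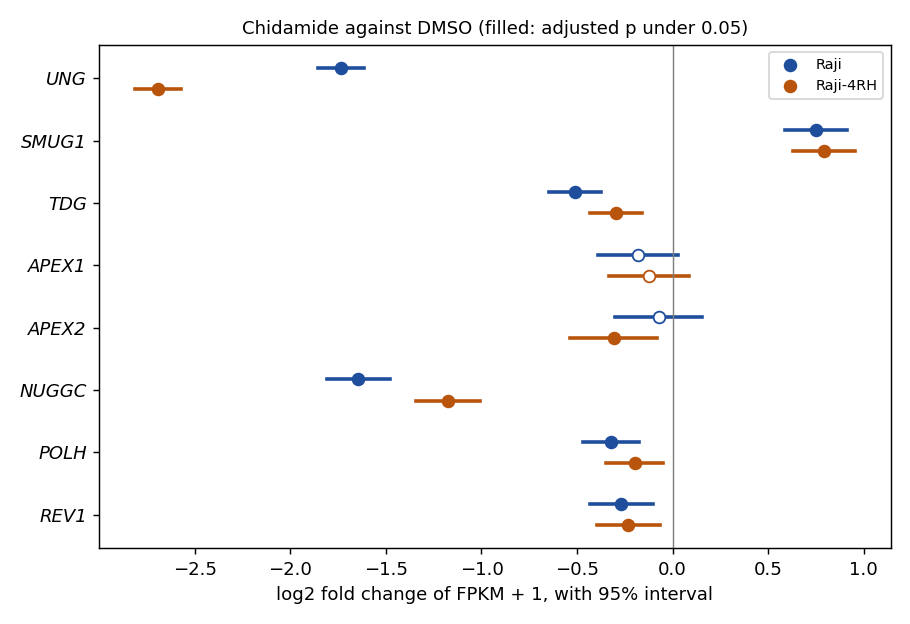
Log2 fold change of FPKM + 1 (x axis) for chidamide against DMSO in Raji and in Raji-4RH, with 95% intervals; filled points passed an adjusted p of 0.05. UNG (-1.74 and -2.69) and NUGGC (-1.64 and -1.17) lie far to the left, SMUG1 (0.75 and 0.79) to the right, and the other 5 nearer to 0.

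UNG, which removes uracil from DNA in the nucleus and in mitochondria, fell in both lines. In Raji it stood at 36.6 and 38.2 FPKM under DMSO and at 10.5 and 10.5 FPKM under chidamide. In Raji-4RH it stood at 45.4 and 45.7 FPKM under DMSO and at 6.40 and 6.01 FPKM under chidamide. The libraries of each line lay well apart by treatment, and Raji-4RH went from the higher level under DMSO to the lower one under chidamide. By the ratio of mean FPKM, UNG was 3.56-fold lower with chidamide in Raji and 7.34-fold lower in Raji-4RH. On the log2(FPKM + 1) scale the change was -1.74 ± 0.0523 in Raji (SE, adjusted p = 2.1e-07) and -2.69 ± 0.0523 in Raji-4RH (adjusted p = 2.1e-08). Of the 10710 genes tested, 4 had a lower fold change than UNG in Raji-4RH, namely CDC45, MCM4, MCM5 and E2F2, all of them genes of replication or its control. In Raji, only KCTD15 had a lower one among the genes tested. The fall was larger in Raji-4RH than in Raji by -0.95 on the log2 scale (95% interval -1.12 to -0.78, adjusted p = 3.5e-05). Over 18 alternatives the change in Raji-4RH stayed between -2.88 and -2.65 and that in Raji between -1.83 and -1.63.

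UNG moved with the S phase genes, and it is itself a member of the S phase list used in single-cell analysis. Of the other 41 genes of that list that were tested, 41 fell in Raji-4RH (median -1.74 on the log2 scale), and CDC45, a part of the replicative helicase, fell most (-3.33). In Raji, 35 of the 41 fell and 2 rose, UBR7 most (0.49), with a median of -0.69. In Raji-4RH 3 of the 41 had a lower value than UNG, and in Raji none did, where the lowest of them was at -1.35. On the difference between the lines the order was another one, since 26 of the 41 had a more negative value than UNG, and the list's median was -0.998. CDKN1A, which encodes the cyclin-dependent kinase inhibitor p21, went from 10.4 to 51.5 FPKM in Raji and from 30.7 to 165 FPKM in Raji-4RH, and E2F1, an activator of S phase genes, went from 59.1 to 31.8 FPKM and from 89.7 to 20.1 FPKM. In bulk RNA, fewer cells in S phase and less UNG RNA per cell cannot be told apart, and the part of the cell cycle in the fall of UNG was not tested.

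SMUG1, a glycosylase that removes uracil and some oxidised pyrimidines and is not known to follow S phase, rose in both lines. Under DMSO it was read at 2.80 and 2.64 FPKM in Raji and at 2.79 and 2.61 FPKM in Raji-4RH. Under chidamide it was read at 5.34 and 5.17 FPKM in Raji and at 5.76 and 5.04 FPKM in Raji-4RH. All 4 chidamide libraries lay above all 4 DMSO libraries, and the lines overlapped under each condition. The mean FPKM was 1.93-fold higher with chidamide in Raji and 2.00-fold higher in Raji-4RH. The log2 fold change was 0.75 ± 0.0704 in Raji (SE, adjusted p = 4.3e-05) and 0.79 ± 0.0704 in Raji-4RH (adjusted p = 1.3e-05). The 2 responses differed by 0.04, with a 95% interval from -0.19 to 0.27, an interval that includes differences of either sign. SMUG1 shares 179 exonic bases (2.97% of its length) with each of 2 long noncoding RNAs.

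As UNG fell and SMUG1 rose, the balance between them shifted. UNG had 13.1 and 14.5 times the FPKM of SMUG1 in the Raji DMSO libraries and 16.3 and 17.5 times in the Raji-4RH DMSO libraries. With chidamide the ratio was 1.97 and 2.04 in Raji and 1.11 and 1.19 in Raji-4RH, so that UNG stayed above SMUG1 in each library and came close to it per length in Raji-4RH. Of the summed FPKM of the 4 glycosylases that act on uracil or thymine mispairs (UNG, SMUG1, TDG and MBD4), UNG made up 52.0 ± 0.724% in Raji DMSO and 59.7 ± 0.104% in Raji-4RH DMSO. Under chidamide its share was 27.3 ± 0.725% in Raji and 18.6 ± 0.617% in Raji-4RH, less than that of TDG, which held 35.4 ± 0.333% and 39.5 ± 0.586%. The sum itself went from 72.0 ± 3.23 to 38.5 ± 0.972 FPKM in Raji and from 76.2 ± 0.504 to 33.3 ± 0.403 FPKM in Raji-4RH. These ratios are RNA levels per length, given with no test.

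**Figure D3:**
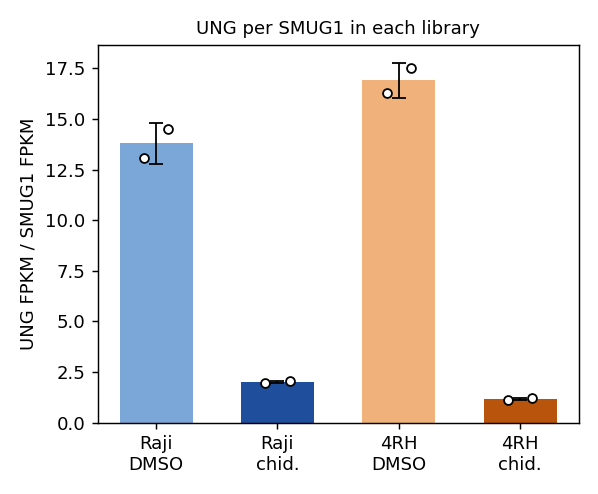
UNG FPKM divided by SMUG1 FPKM in each library (white points), with the group mean (bar, axis from 0) and SD (error bar), n = 2. The 4 DMSO libraries lie between 13.1 and 17.5 and the 4 chidamide libraries between 1.11 and 2.04.

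TDG, which removes thymine or uracil opposite guanine and takes part in active demethylation, fell by less. It stood at 18.9 and 20.8 FPKM in Raji DMSO and at 13.96 and 13.3 FPKM in Raji chidamide. In Raji-4RH it stood at 16.2 and 16.6 FPKM under DMSO and at 13.1 and 13.2 FPKM under chidamide. The groups did not overlap in either line, and both lines ended near the same level. The log2 fold change was -0.51 ± 0.0597 in Raji (SE, adjusted p = 1.4e-04) and -0.30 ± 0.0597 in Raji-4RH (adjusted p = 0.0019). The difference between the responses, 0.21 with a 95% interval from 0.02 to 0.41, missed the threshold (adjusted p = 0.066) and passed it without Raji DMSO replicate 1, at 0.28 (adjusted p = 0.033). GENCODE lists a processed pseudogene for TDG, and for SMUG1 and POLH, and 2 for UNG, with which reads could be shared, depending on how multiply mapped reads were counted.

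APEX1, the endonuclease that carries out nearly all cutting at abasic sites, had no change that passed the test in either line. In Raji it was read at 256 and 260 FPKM under DMSO and at 231 and 224 FPKM under chidamide. In Raji-4RH it was read at 166 and 173 FPKM under DMSO and at 173 and 140 FPKM under chidamide. The Raji groups did not overlap, while the Raji-4RH groups did, with Raji-4RH chidamide replicate 1 at the level of DMSO. Its log2 fold change was -0.18 in Raji (95% interval -0.39 to 0.03, adjusted p = 0.12) and -0.12 in Raji-4RH (-0.33 to 0.09, adjusted p = 0.25). Both calls depended on the libraries of Raji-4RH chidamide, whose spread enters the error of every comparison. Without replicate 1 of that group, APEX1 fell in Raji-4RH by 0.27 (adjusted p = 6.0e-04). Without replicate 2 its value there turned to 0.03 (adjusted p = 0.57), and under quantile normalization to 0.15 (adjusted p = 0.070). Without either replicate the unchanged value of -0.18 in Raji passed the test (adjusted p = 0.0025 and 0.0024), as it did in a fit of the 4 Raji libraries alone (adjusted p = 0.0083).

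APEX2, a weaker endonuclease with exonuclease activity that binds PCNA, fell in Raji-4RH. It was read at 19.8 and 21.3 FPKM under DMSO and at 14.4 and 18.5 FPKM under chidamide there, and at 13.2 and 13.2 FPKM and 12.7 and 12.4 FPKM in Raji. The log2 fold change was -0.31 ± 0.0990 in Raji-4RH (SE, adjusted p = 0.020) and -0.07 in Raji (95% interval -0.30 to 0.16, adjusted p = 0.57). The call in Raji-4RH was lost without Raji-4RH chidamide replicate 1 (-0.14, adjusted p = 0.063), without Raji-4RH DMSO replicate 2 (-0.26, adjusted p = 0.12), under quantile normalization (-0.16, adjusted p = 0.18) and in a fit of the 4 Raji-4RH libraries alone (-0.31, adjusted p = 0.078). Relative to APEX2, APEX1 had 19.5 ± 0.228 times the FPKM in Raji DMSO and 8.26 ± 0.203 times in Raji-4RH DMSO. Without Raji-4RH chidamide replicate 2 the differences between the lines' responses passed the test for APEX1 (0.21, adjusted p = 0.015) and APEX2 (-0.40, adjusted p = 0.0030), which they did not with all libraries.

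NUGGC, known as a regulator that limits off-target effects of cytosine deamination in germinal centre B cells, fell in both lines and by more in Raji. In Raji it was read at 16.8 and 18.0 FPKM under DMSO and at 4.58 and 5.19 FPKM under chidamide. In Raji-4RH it was read at 18.0 and 16.7 FPKM under DMSO and at 7.37 and 6.88 FPKM under chidamide. The lines overlapped under DMSO and lay apart under chidamide, with Raji the lower. Mean FPKM was 3.56-fold lower with chidamide in Raji and 2.43-fold lower in Raji-4RH. The log2 fold change was -1.64 ± 0.0727 in Raji (SE, adjusted p = 8.0e-07) and -1.17 ± 0.0727 in Raji-4RH (adjusted p = 1.6e-06). In Raji, 5 of the 10710 genes tested had a lower fold change, namely KCTD15, UNG, CD27, APOA2 and ALB. In Raji-4RH, 347 did. The source of the APOA2 and ALB reads in Raji was not tested. The responses differed by 0.47 (95% interval 0.23 to 0.71, adjusted p = 0.0062), opposite in sign to the difference of UNG. Germinal centre markers did not move together: of the 7 tested, 3 fell and 2 rose in Raji, and 3 fell and 4 rose in Raji-4RH. MME, which encodes the surface peptidase CD10, fell by 1.42 in Raji and by 1.21 in Raji-4RH. By contrast, LMO2 rose by 1.48 in Raji but had -0.37 in Raji-4RH. CD38 rose by 1.62 in Raji-4RH and had -0.03 in Raji, which did not pass.

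POLH, the polymerase that copies ultraviolet dimers and makes many of the A and T mutations of hypermutation, fell in both lines by a small amount. Its libraries spanned 14.02 to 15.2 FPKM in Raji DMSO, 10.9 to 12.1 in Raji chidamide, 9.80 to 10.1 in Raji-4RH DMSO and 8.45 to 8.62 in Raji-4RH chidamide, with no overlap between any of the 4 groups. The log2 fold change was -0.32 ± 0.0646 in Raji (SE, adjusted p = 0.0028) and -0.20 ± 0.0646 in Raji-4RH (adjusted p = 0.021). The latter missed the threshold without Raji-4RH DMSO replicate 1 (-0.18, adjusted p = 0.11), without Raji-4RH DMSO replicate 2 (-0.22, adjusted p = 0.059) and without Raji-4RH chidamide replicate 2 (-0.19, adjusted p = 0.054).

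REV1, a deoxycytidyl transferase that also holds other translesion polymerases together, changed by a like amount. It spanned 6.59 to 7.19 FPKM in Raji DMSO, 5.51 to 5.58 in Raji chidamide, 7.56 to 8.58 in Raji-4RH DMSO and 6.55 to 6.87 in Raji-4RH chidamide. The log2 fold change was -0.27 ± 0.0713 in Raji (SE, adjusted p = 0.011) and -0.23 ± 0.0713 in Raji-4RH (adjusted p = 0.017). Leaving out single libraries undid both calls. In Raji the call was lost without DMSO replicate 2 (-0.21, adjusted p = 0.077), without chidamide replicate 1 (-0.28, adjusted p = 0.051) and without chidamide replicate 2 (-0.26, adjusted p = 0.060). In Raji-4RH it was lost without DMSO replicate 1 (-0.15, adjusted p = 0.13), without chidamide replicate 1 (-0.20, adjusted p = 0.061) and in a fit of the 4 Raji-4RH libraries alone (-0.23, adjusted p = 0.052). REV1 shares 852 bases (10.97% of its exonic length) with EIF5B on the opposite strand, and the strand setting of the counting is not given in the sources used here, so reads of the 2 genes in that stretch cannot be told apart.

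Under DMSO the lines differed in 6 of the 8 genes, against 73.6% of all genes, with 3 higher in Raji-4RH (41.2% of all genes) and 3 lower (32.4%). APEX1 and APEX2 lay in opposite directions, the former lower in Raji-4RH by -0.60 ± 0.0907 (SE, adjusted p = 3.6e-04) and the latter higher by 0.60 ± 0.0990 (adjusted p = 6.4e-04). POLH was lower by -0.51 ± 0.0646 (adjusted p = 1.2e-04) and TDG by -0.26 ± 0.0597 (adjusted p = 0.0042), while UNG was higher by 0.28 ± 0.0523 (adjusted p = 0.0014). REV1 was higher by 0.20 (adjusted p = 0.032), a call that 8 alternatives undid, leaving out Raji DMSO replicate 1 (0.14, adjusted p = 0.18), Raji-4RH DMSO replicate 1 (0.12, adjusted p = 0.23) or either Raji chidamide library (0.20, adjusted p = 0.055 and 0.054) among them. SMUG1 differed by -0.01 (95% interval -0.17 to 0.15) and NUGGC by 0.00 (-0.17 to 0.16).

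Under chidamide 6 of the 8 again differed between the lines, against 79.3% of all genes, with 3 higher in Raji-4RH (44.3% of all genes) and 3 lower (35.0%). UNG was lower in Raji-4RH by -0.68 ± 0.0523 (SE, adjusted p = 4.4e-06), the reverse of its order under DMSO. NUGGC was higher by 0.47 ± 0.0727 (adjusted p = 3.7e-04). APEX1 (-0.55), APEX2 (0.36) and POLH (-0.39) kept the direction they had under DMSO. REV1 was higher by 0.24 (adjusted p = 0.014), which was lost without Raji chidamide replicate 1 (0.24, adjusted p = 0.055), Raji chidamide replicate 2 (0.23, adjusted p = 0.067) or Raji-4RH chidamide replicate 2 (0.21, adjusted p = 0.054), under quantile normalization (0.14, adjusted p = 0.096) and with median-centred libraries (0.16, adjusted p = 0.058). TDG differed by -0.04 (95% interval -0.18 to 0.09). The response to chidamide itself differed between the lines for 2 of the 8 genes, UNG and NUGGC, against 48.8% of all genes.

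**Figure D4:**
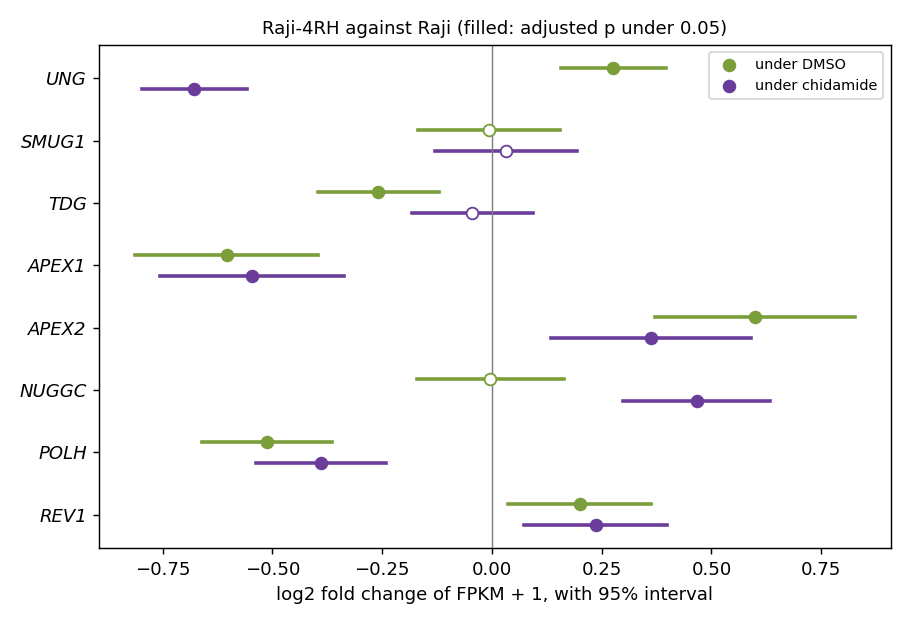
Log2 difference of FPKM + 1 (x axis) of Raji-4RH against Raji under DMSO and under chidamide, with 95% intervals; filled points passed an adjusted p of 0.05. UNG changes side, from 0.28 to -0.68, NUGGC moves from 0.00 to 0.47, and APEX1, APEX2, POLH and REV1 keep their side.

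The enzymes that keep uracil out of new DNA fell beside UNG. Of 6 genes of dUTP and dTMP supply, 5 were placed and tested. All 5 passed the test as lower in Raji-4RH (median -1.66) and 3 of them in Raji (median -0.94). By sign alone, all 5 lay below 0 in Raji as reported, but quantile normalization left 3 below 0 and 2 above. DUT, which hydrolyses dUTP, went from 53.6 and 57.4 FPKM to 27.7 and 28.1 FPKM in Raji and from 38.3 and 38.0 FPKM to 11.4 and 10.5 FPKM in Raji-4RH. TYMS, which makes dTMP from dUMP, fell most of the list, by 1.08 in Raji and by 2.61 in Raji-4RH. For DUT the log2 fold change was -0.97 in Raji (adjusted p = 4.2e-06) and -1.72 in Raji-4RH (adjusted p = 9.7e-08).

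Other glycosylases went both ways. In Raji-4RH 4 of the 8 tested fell and 3 rose (median -0.19), and in Raji 6 fell and 2 rose (median -0.37). NEIL2, which removes oxidised bases, rose most, from 0.811 to 3.45 mean FPKM in Raji and from 2.33 to 8.91 in Raji-4RH. On the log2(FPKM + 1) scale, which understates changes of low genes, this was 1.30 and 1.58. The largest fall was that of NTHL1, also a glycosylase of oxidised bases, in Raji-4RH (-1.15) and of NEIL3 in Raji (-0.87). MBD4, which like TDG acts on mispaired thymine and uracil, fell by 0.36 in Raji and by 0.40 in Raji-4RH.

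Of 12 genes that complete base excision repair, 8 fell and 2 rose in Raji-4RH (median -0.44), and 6 fell and 3 rose in Raji (median -0.17). FEN1, the flap endonuclease, fell most in Raji-4RH (-2.03) and the replicative ligase LIG1 in Raji (-1.06), while APLF, which binds poly(ADP-ribose), had 0.62 and 0.55. APLF passed the filter only through its chidamide libraries, so that its direction had to follow, and without it 8 fell and 1 rose in Raji-4RH (median -0.57) and 6 fell and 2 rose in Raji (median -0.19). POLB, the main gap-filling polymerase of this route, had 0.19 in Raji-4RH and 0.14 in Raji, which did not pass. All 8 mismatch repair genes fell in Raji-4RH (median -0.35), EXO1 most (-2.10), and 5 fell in Raji (median -0.20), MSH6 most (-0.51).

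Of 14 genes of translesion synthesis and its PCNA switch, 7 fell and 5 rose in Raji-4RH (median -0.23), and 5 fell and 4 rose in Raji (median -0.01, which turned to 0.03 under quantile normalization). POLI and POLK, the other polymerases of the family of POLH and REV1, rose in both lines, POLI by 0.87 in Raji-4RH and 0.46 in Raji, and POLK by 0.49 and 0.47. PCNA, the sliding clamp whose ubiquitination calls these polymerases, fell from 373 to 71.7 mean FPKM in Raji-4RH (-2.36) and from 223 to 113 in Raji (-0.97), and RAD18, the ligase that ubiquitinates it, fell by 1.68 and 0.71. Both kinds of gene went both ways in Raji-4RH, where the polymerases POLQ (-1.48) and REV3L (-0.27) fell and the switch genes HLTF (0.53), UBE2B (0.42) and WDR48 (0.32) rose. In Raji, PRIMPOL rose most (0.52).

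On the side of deamination, 7 of 10 APOBEC genes were placed and 4 passed the filter. APOBEC3H passed it only through its chidamide libraries. The other 3 rose in Raji-4RH (median 1.55) and 2 of them in Raji (median 0.63). Among these 3, APOBEC2 rests on few reads. It had 34 and 30 under DMSO and 35 and 36 under chidamide in Raji-4RH (log2 fold change 0.29), and 8 and 7 against 6 and 4 in Raji. Under quantile normalization 3 of the 4 genes lay above 0 in each line. APOBEC3B went from 1.34 and 1.28 FPKM to 4.84 and 3.87 FPKM in Raji and from 0.984 and 0.523 FPKM to 7.69 and 6.93 FPKM in Raji-4RH. Its change on the log2(FPKM + 1) scale, which understates changes of low genes, was 1.21 and 2.26. APOBEC3H had at most 2 reads in each DMSO library, so that the direction of its value (1.25 in Raji) had to follow from the filter. APOBEC3 genes resemble each other closely, and reads may have been split between them. Of 14 cofactors and regulators of deamination in B cells, 10 fell and 3 rose in Raji-4RH (median -0.64), and 8 fell and 3 rose in Raji (median -0.25). In both lines DNAJA1, a chaperone partner, fell most (-1.05 in Raji-4RH and -0.59 in Raji) and PRKACA, a protein kinase A subunit, rose most (0.41 and 0.55).

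Of 14 genes of break joining in class switching, 9 fell and 2 rose in each line, with medians of -0.33 in Raji-4RH and -0.21 in Raji. LIG4, the ligase of end joining, rose by 0.79 in Raji-4RH, and its partner XRCC4 fell by 1.10 there. In Raji, ATM, a kinase that answers double-strand breaks, rose most (0.40) and PAXX, a factor of end joining, fell most (-0.62). The lists share genes with each other (PCNA, FEN1, TYMS, EXO1 and others are also S phase genes), and their counts stand beside the whole-table shares given above without a test of the lists.

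**Figure D5:**
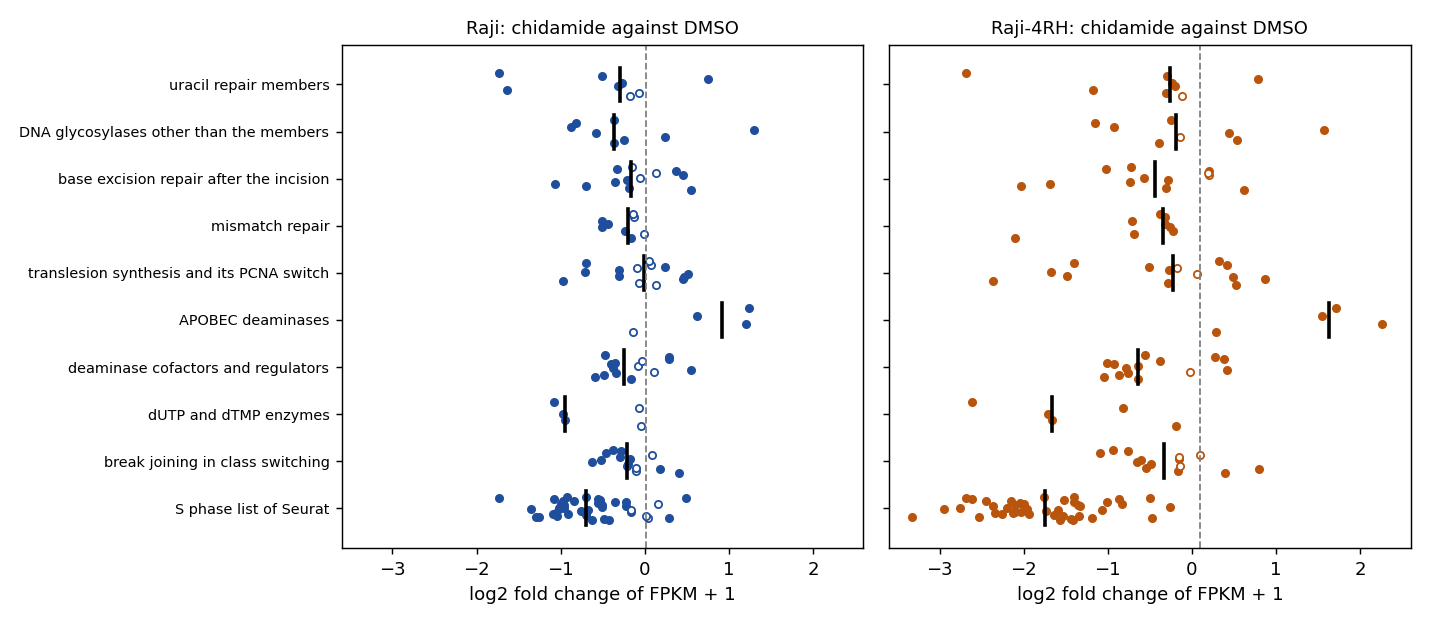
Log2 fold change of FPKM + 1 (x axis) for chidamide against DMSO of each tested gene of the 8 members and 9 lists, in Raji (left) and Raji-4RH (right); filled points passed an adjusted p of 0.05, black lines are list medians and the dashed line is the median of all genes. S phase genes and dUTP and dTMP enzymes lie lowest (medians -0.70 and -0.94 in Raji, -1.75 and -1.66 in Raji-4RH) and the APOBEC list has medians of 0.92 and 1.63, or 0.63 and 1.55 without APOBEC3H, whose direction the filter fixed.

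For each member the 3 most similar genes were sought among the 6614 tested genes that averaged 5 FPKM or more, by the root mean square difference of centred log2(FPKM + 1) values over the 8 libraries. SMUG1, with a mean under 5 FPKM, was not compared. Nearest to UNG were MCM7, a subunit of the replicative helicase (0.219), TRIP13 (0.233) and ALYREF (0.248), where the median gene lay at 1.14. Nearest to REV1 was REV3L (0.0315), the catalytic subunit of the polymerase zeta that REV1 recruits, followed by COX11 (0.0359) and PDXDC1 (0.0516). The median gene lay at 0.349 from REV1. REV1 itself varied little, with a root mean square of 0.174 around its own mean against 1.14 for UNG, so small distances come more easily for it. REV3L stood at 6.08 and 6.50 FPKM in Raji DMSO, 4.78 and 5.05 in Raji chidamide, 7.70 and 7.11 in Raji-4RH DMSO and 5.88 and 6.07 in Raji-4RH chidamide. Nearest to POLH were RNF8, a ubiquitin ligase of the break response (0.0358), ME2 (0.0409) and RTRAF (0.0553), and nearest to NUGGC were BDH1 (0.167), FAM136A (0.169) and MME (0.178). TDG was closest to ZCCHC2 (0.0590), PAK2 (0.0599) and GABPA (0.0608), APEX1 to TMEM14B (0.0439), RAB2A (0.0605) and COPS2 (0.0685), and APEX2 to RIC8A (0.0602), CCDC97 (0.0658) and MED20 (0.0661). Among the members, APEX1 and POLH were the closest pair (0.121), and NUGGC was the 116th nearest gene to UNG (0.581). Seen from NUGGC, UNG was only the 1331st nearest gene at that same distance, behind TDG (0.546, rank 991). These distances describe 8 libraries that share 4 groups.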

How the data were processed

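RNA from 8 libraries was sequenced by the authors on an Illumina HiSeq X after NEBNext Ultra preparation, and the submitters' processing notes name HISAT2 2.0.5, SAMtools 1.7, HTSeq 0.9.1 and DESeq2 1.22.2 and the build GRCh38. The authors deposited FPKM values, divided by gene length and library total. Beyond the top of the table, values lie below their labels, and the rule gives each label's distance. Of 63967 rows the last 662 repeat the first 662, and 18143 labels were placed. FPKM times length times library total gave whole reads for 100.0% of non-zero values (within 0.01), and FPKM was recomputed with the gene's own length (GENCODE 29). Gene coordinates are GENCODE's and promoters RefSeq's.

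Differences were tested with limma 3.58.1 (R 4.3.3, trend) on log2(FPKM + 1) in 1 fit of 4 group means of the 8 libraries, on the 10710 genes that reached 1 FPKM in 2 or more of them, with Benjamini-Hochberg adjustment and a threshold of 0.05. Fold changes on this scale understate those of low genes. The fit was also run on simulated data, with an outcome not given here. Alternatives were quantile and median scaling, no filter or a mean filter, a pseudocount of 0.1, no trend, voom on recovered reads, only the libraries compared, a replicate block, rows as deposited, a minimum change of 1 and leaving out each library. Shares and ratios cover no more than the 2 libraries per group.

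Named were all members, per list and line the gene that rose most and the gene that fell most among those called, CDKN1A and E2F1, and the 3 genes most like each member. A further few (MBD4, POLB, POLI and POLK in Raji, RAD18, POLQ, HLTF, UBE2B, WDR48, DUT, KCTD15 and the genes below UNG in Raji-4RH) were chosen after their values were seen. So were APOBEC2, CD38, LMO2, CD74 and the genes below NUGGC in Raji. The members and lists were chosen with earlier results of these data known. Some genes of the lists are not reported here by name. Python 3.11.15, pandas 2.3.3, numpy 2.4.6 and matplotlib 3.10.9 were used.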

Additional observations from a re-analysis of the deposited data

Results flagged for a closer look

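The response to chidamide differed between the lines for UNG and for NUGGC, by a test of the difference itself (the interaction term of the limma fit). For UNG the effect in Raji-4RH minus that in Raji was -0.95 on the log2 scale (adjusted p = 3.5e-05), and it lay between -1.09 and -0.91 over 17 alternatives. For NUGGC the same difference was 0.47 (adjusted p = 0.0062), between 0.38 and 0.55 over its alternatives, with adjusted p-values from 0.0038 to 0.031. Such a difference was called for 48.8% of all genes tested.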

How the results depend on the processing

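Of 737 values of single genes under alternatives, 684 kept their direction and their side of the threshold, and 15 that passed the test in neither fit changed sign (SMUG1 6, APEX1 3, NUGGC 3 and REV1 3). Of 198 counts, 186 stayed within 1.5 times. With the rows as deposited, 5 of the 8 genes carry another gene's values, 3 of the 8 were called in Raji-4RH, and TDG turned to 0.30 in Raji, to -0.77 in the difference of responses and to 0.39 between the lines under DMSO. A minimum log2 fold change of 1 left 2 of the 8 genes and 1620 of all genes in Raji-4RH, 2 and 560 in Raji, 0 and 676 in the difference of responses, 0 and 1703 between the lines under DMSO, and 0 and 2228 under chidamide, since fewer genes change that far. Leaving out 1 library gave 5 to 7 called members in Raji-4RH, 5 to 7 in Raji 2 to 4 in the difference of responses, with 4 without Raji-4RH chidamide replicate 2, and 5 to 6 between the lines under either condition. Same-numbered replicates were not treated as paired, since no label states a pairing. Their deviations correlated between -0.279 and 0.166, which cannot show whether cultures were paired. With the replicate block, 7, 6, 2, 6 and 6 of the 8 genes were called in the 5 comparisons, as without it, and 7886, 6183, 4915, 7748 and 8397 of all genes. A crossed pairing, chosen after seeing the data, called the same numbers of members and 8190, 6587, 5509, 8037 and 8604 genes. With no filter, 10430 genes were called in Raji-4RH. The 2 libraries per group and 230 or more reads per value limit the precision of small changes (APEX1, APEX2, POLH, REV1), whose calls depended on single libraries as given above.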

Other observations

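POLB, the gap-filling polymerase, was higher in Raji-4RH than in Raji, with a log2 difference of 1.17 under DMSO and 1.21 under chidamide, and LIG4 was lower, with one of -1.16 under DMSO (limma, adjusted p = 6.2e-06, 3.6e-06 and 9.3e-07). Both were chosen after their values were seen.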
